A study of Homo sapiens with 6 samples.

Results

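The genes described here are the protein-coding genes of the short arm of human chromosome 9, in cells carrying a control shRNA (Control sh) or an shRNA against VprBP, the protein encoded by DCAF1 (VprBP sh). They were chosen by position: every row of the count table with the type protein-coding, on chromosome 9 and with a start before 43 Mb on hg38, with MTAP and RPS6 left out by the rule. This gave 161 genes of the 21494 in the table, of which 15325 are protein-coding. The arm was selected for study because its counts in Control sh and VprBP sh had already been seen to differ, so that the differences between these groups given here are descriptions and not tests of the arm. The genes at the edge of the rule were CNTNAP3B, the last one inside, with 181, 158 and 199 counts in Control sh samples 1 to 3 and 133, 168 and 243 in VprBP sh samples 1 to 3, and CNTNAP3C, the first one outside, with 269, 205 and 307 against 9, 11 and 29.

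The short arm of chromosome 9 carries CDKN2A and CDKN2B, which encode inhibitors of the cyclin D-dependent kinases that phosphorylate the retinoblastoma protein, and the alternative reading frame product of CDKN2A, which restrains the ubiquitin ligase MDM2. The segment around them is among those most often lost or silenced in melanoma and in many other tumours, and the cluster of type I interferon genes lies beside it. Elsewhere the arm holds the ligands of the immune receptor PD-1, the kinase JAK2, the pigment genes TYRP1 and MLANA, and many genes that every cell uses.

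RNA-seq was performed on 3 Control sh and 3 VprBP sh samples. The labels describe all of them as G361, a human melanoma cell line, with the genotype WT for the first group and DCAF1 Knockdown for the second, but the same labels name LD611 as the source. Both shRNAs were delivered by lentivirus, and the infected cells were selected with puromycin. No source states that the samples of a group came from separate cultures, so the spread between them may be technical.

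Total counts per sample ran from 18195949 to 26883948. DCAF1 itself had 688, 893 and 884 counts in Control sh against 681, 488 and 628 in VprBP sh, which gave 869 ± 90.6 against 583 ± 154 normalized counts, that is, counts divided by the upper quartile factor of the sample (mean ± SD, n = 3 each). The groups did not overlap, and the log2 fold change was -0.58 (SE 0.17, adjusted p = 0.0125, edgeR quasi-likelihood test), less than 2-fold. Replicates 2 and 3 of each group were closer to each other than to replicate 1 (chi-square per degree of freedom of 2.50 and 2.36, against 17.97 to 29.9), and mitochondrial genes took 1.96% to 1.98% of counts in Control sh against 4.10% to 4.48% in VprBP sh. A gene was called when the adjusted p-value of edgeR was under 0.05 and the fold change was over 2. Of 8 melanocyte markers, 4 were in the table, none was called, and their summed level was 199 to 236 normalized counts in Control sh against 244 to 308 in VprBP sh, with MLANA and TYRP1 at a few counts. DCT, S100B, SOX10 and TYR had no row in the count table, in which every gene sums to at least 10. Of 10 urothelial markers, 8 were in the table, with 2 called higher (GATA3 and PPARG) and 4 lower (KRT5, KRT13, UPK1B and UPK2). Their sum was 96986 to 110249 in Control sh against 25098 to 28543 in VprBP sh. KRT7 was abundant in both groups and not called, with 31763, 31453 and 36124 counts in Control sh against 15710, 22804 and 30647 in VprBP sh. KRT5 had 48190, 63704 and 73688 against 4524, 2582 and 3560. UPK1B was at 0 in VprBP sh, while GATA3 had 7, 1 and 0 counts in Control sh against 1580, 1334 and 1873 in VprBP sh. Fibroblast markers (4 of 6 in the table, 3 called lower, LUM at 0 in VprBP sh) summed to 755 to 803 in Control sh against 457 to 602 in VprBP sh. Endothelial markers (3 of 3, 2 called lower) summed to 618 to 687 and 29.03 to 39.1. The leukocyte marker CD68 (1 of 4 in the table) was called lower, with 654 to 1049 and 1.12 to 5.20 normalized counts. The melanoma label is not borne out by the melanocyte markers of the table in either group. The part of these differences in the results on the arm was not tested. As the labels name both G361 and LD611, whether the groups came from the same cell line was not tested either, and every difference given here is between the samples as labelled.

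A stretch of the arm around CDKN2A had no or almost no counts in Control sh and clear counts in VprBP sh. It was marked as the run of genes with fewer than 10 counts in every Control sh sample, and it held CDKN2A, CDKN2B, DMRTA1 and ELAVL2, which lie next to each other among the 161 genes. In sum these 4 genes had 3, 1 and 3 counts in the Control sh samples and 2902, 4464 and 5775 in the VprBP sh samples. Since the stretch was defined by these counts, they are given with no test. In bulk RNA, fewer cells expressing a gene and less RNA of it per cell cannot be told apart.

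CDKN2A (ENSG00000147889.18, minus strand, chr9:21967752-21995301 on hg38) had 0 counts in all 3 Control sh samples and 2059, 3479 and 4443 counts in VprBP sh. Its normalized counts in VprBP sh were 2299, 3615 and 3406, with a mean of 3107 ± 707 (SD, n = 3). Taking 3 counts as the floor of detection in each library, it was at least 973-fold higher in VprBP sh. Per kilobase of exon it ranked 4 in VprBP sh among the 161 genes, which leave out MTAP and RPS6. The row covers the whole gene, so the p16INK4a and p14ARF transcripts were not separated.

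CDKN2B (ENSG00000147883.12, minus strand, chr9:22002903-22009305), which encodes the kinase inhibitor p15INK4b, starts 7.60 kb beyond the end of CDKN2A. It had 0 counts in every Control sh sample and 611, 777 and 1017 in VprBP sh. Its mean in VprBP sh was 756 ± 65.7 normalized counts, at least 237-fold higher, and its rank per kilobase was 36. Both inhibitors were therefore without a single count in Control sh, and both had more than 500 in each VprBP sh sample.

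DMRTA1 (ENSG00000176399.4, plus strand, chr9:22446824-22455740), a DM domain transcription factor gene, showed the same pattern, with 0 counts in Control sh against 82, 96 and 138 in VprBP sh. The VprBP sh mean was 99.0 ± 7.14 normalized counts, at least 31.0-fold higher, with a rank of 106 per kilobase. ELAVL2 (ENSG00000107105.15, minus strand, chr9:23690104-23826337), which encodes a neuronal RNA-binding protein, had 3, 1 and 3 counts in Control sh against 150, 112 and 177 in VprBP sh. Its normalized counts were 2.47 ± 1.24 and 140 ± 25.8, a ratio of 56.3 with a 95% exact interval of 27.1 to 141 that covers counting error only. ELAVL2 was thus the only gene of the stretch with any count in Control sh. A count of 0 in these libraries allows a level of up to 0.121 to 0.145 CPM (3 counts over the library total, times 10 to the power 6).

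The sequences before the transcription starts of these 4 genes are shown because the genes are those without or nearly without counts in Control sh. They are the 250 bases before each start, 5′ to 3′ on the strand of the gene, from RefSeq on GRCh38.p14, in which capitals mark the GC box GGGCGG or its reverse complement CCGCCC. The regions are chr9:21995325-21995574 for the upstream start of CDKN2A, chr9:21974858-21975107 for its downstream start, chr9:22009306-22009555 for CDKN2B, chr9:22446574-22446823 for DMRTA1 and chr9:23826241-23826490 for the outermost of 6 starts of ELAVL2.
CDKN2A, upstream start: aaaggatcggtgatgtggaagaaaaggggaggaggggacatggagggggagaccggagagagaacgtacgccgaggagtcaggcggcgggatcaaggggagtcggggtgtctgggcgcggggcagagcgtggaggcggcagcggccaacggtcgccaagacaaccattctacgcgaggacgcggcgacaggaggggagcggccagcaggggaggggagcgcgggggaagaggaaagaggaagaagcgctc
CDKN2A, downstream start: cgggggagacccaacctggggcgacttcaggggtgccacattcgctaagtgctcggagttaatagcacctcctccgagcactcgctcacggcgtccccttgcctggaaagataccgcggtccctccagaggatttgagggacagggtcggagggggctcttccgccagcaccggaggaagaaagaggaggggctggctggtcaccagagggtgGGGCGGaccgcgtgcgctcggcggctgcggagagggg
CDKN2B: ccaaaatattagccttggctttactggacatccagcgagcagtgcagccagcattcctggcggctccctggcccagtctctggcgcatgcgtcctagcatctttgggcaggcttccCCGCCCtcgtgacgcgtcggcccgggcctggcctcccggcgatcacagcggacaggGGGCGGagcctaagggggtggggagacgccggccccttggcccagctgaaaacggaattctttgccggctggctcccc
DMRTA1: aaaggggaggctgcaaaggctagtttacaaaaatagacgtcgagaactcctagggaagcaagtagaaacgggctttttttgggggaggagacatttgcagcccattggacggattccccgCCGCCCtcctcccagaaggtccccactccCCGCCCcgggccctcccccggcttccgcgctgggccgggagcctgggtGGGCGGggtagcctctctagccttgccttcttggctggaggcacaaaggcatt
ELAVL2: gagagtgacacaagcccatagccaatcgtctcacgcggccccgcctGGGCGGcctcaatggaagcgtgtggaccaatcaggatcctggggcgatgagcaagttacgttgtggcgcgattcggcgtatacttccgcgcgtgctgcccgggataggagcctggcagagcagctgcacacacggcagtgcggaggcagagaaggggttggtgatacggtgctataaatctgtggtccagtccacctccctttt

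The G and C content of the 5 windows shown was 66.8% at both CDKN2A starts, 66.4% at CDKN2B, 61.6% at DMRTA1 and 60.4% at the outermost start of ELAVL2, against a median of 58% over 35114 RefSeq promoter windows of the same length. They held 24, 20, 18, 13 and 19 CpG dinucleotides in the same order, against a median of 11. The 5 other ELAVL2 windows, not shown, had 42.4%, 49.6%, 74%, 70% and 65.6% G and C and 9, 11, 33, 24 and 22 CpG. GC boxes, counted on both strands, numbered 0, 1, 2, 3 and 1, and 42.6% of all windows held at least 1. A TATAAA motif was found in the ELAVL2 window alone among these 5, and 10.7% of all windows held one on either strand. A motif match is a description of letters and not of a bound site.

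By the limit of 10 counts, the left edge of the stretch fell between IFNE and CDKN2A. The nearest tested member, KLHL9, ends 0.632 Mb before CDKN2A. KLHL9 (chr9:21329665-21335404), which encodes a substrate adaptor of a CUL3 ubiquitin ligase, had 565, 793 and 917 counts in Control sh against 737, 639 and 837 in VprBP sh. Its means of 795 ± 122 and 709 ± 98.8 normalized counts overlapped between groups (log2 fold change -0.17, SE 0.14, or 0.04 with library size alone). The epithelial interferon gene IFNE (chr9:21480839-21482313) is the only member between KLHL9 and CDKN2A. It had 11, 7 and 4 counts in Control sh against 0, 2 and 3 in VprBP sh, a ratio of 4.90 lower (95% exact interval 1.81 to 16.6). IFNE was the gene just outside the limit of 10 counts, had too few counts to be tested and overlaps the noncoding gene MIR31HG on the same strand. Next outward, HACD4, a dehydratase of very long chain fatty acid synthesis, had 548, 635 and 670 counts in Control sh against only 20, 23 and 25 in VprBP sh.

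The right edge fell between ELAVL2 and TUSC1, which are 1.85 Mb apart. TUSC1 (chr9:25676969-25678444), a small gene named as a tumour suppressor candidate, had 156, 74 and 59 counts in Control sh against 445, 666 and 888 in VprBP sh. It was detected in every Control sh sample, and its mean was 106 ± 66.2 against 623 ± 110 normalized counts (log2 fold change 2.58, SE 0.35), and 3.20 (SE 0.23) without Control sh replicate 1. Beyond it CAAP1, which encodes an inhibitor of caspase activity, had 405, 571 and 698 counts against 535, 541 and 671 (log2 fold change -0.07, SE 0.14, or 0.14 with library size alone). PLAA, a ubiquitin-binding cofactor of the ATPase VCP, had 88, 110 and 128 counts against 1028, 999 and 1152 (log2 fold change 3.16, SE 0.14). IFT74 overlaps PLAA on the opposite strand and showed 202, 193 and 224 counts against 194, 173 and 225. The nearest tested members on the 2 sides, KLHL9 and TUSC1, therefore had clear counts in Control sh. The groups overlapped in KLHL9, and VprBP sh was higher in TUSC1. On the left, IFNE, with 11, 7 and 4 counts in Control sh, lies between KLHL9 and the stretch, so that edge is less sharp.

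The other rows of the table in this interval, which are not among the 161 genes and were looked at after the values were seen, placed the edges more closely. Between KLHL9 and TUSC1, both included, the table has 15 rows, and 6 of them had 0 counts in every Control sh sample, from 21858910 to 22455740, a span of 0.597 Mb. MTAP, left out of the members by the rule, had 3, 2 and 6 counts in Control sh against 864, 858 and 1205 in VprBP sh. The antisense noncoding gene CDKN2B-AS1 (chr9:21994139-22128103) had 0 in Control sh against 94, 97 and 127 in VprBP sh, at least 31.6-fold higher. It overlaps CDKN2A and CDKN2B on the opposite strand, and as no source states whether counting used the strand, reads of overlapping genes cannot be told apart. On the left the nearest row with clear counts in Control sh was MIR31HG (chr9:21453802-21559900), with 252, 248 and 337 counts against 101, 85 and 136 in VprBP sh (log2 fold change -1.53, SE 0.15). Its end lies 0.408 Mb before CDKN2A. The pseudogene KHSRPP1, between MIR31HG and MTAP, had 2, 11 and 20 counts in Control sh against 3, 2 and 2.

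Within the stretch one noncoding row had the opposite pattern. LINC01239 (chr9:22646200-22824213) lies between DMRTA1 and ELAVL2, 0.190 Mb beyond the end of the former and 0.866 Mb before the latter. It had 1273, 1394 and 1643 counts in Control sh against 1, 0 and 0 in VprBP sh. Its Control sh mean was 1516 ± 41.1 normalized counts, and the ratio was 4804 lower in VprBP sh, with a 95% exact interval of 862 to 189784, at least 560-fold lower without VprBP sh replicate 1 and 2822 without replicate 3. The run of genes silent in Control sh was thus interrupted by a row with more than 1000 counts in each Control sh sample. Counting all rows, the part with at most 20 counts in any Control sh sample lay between MIR31HG and LINC01239, whose facing ends are 1.09 Mb apart, and ELAVL2 stood apart from it.

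**Figure D1:**
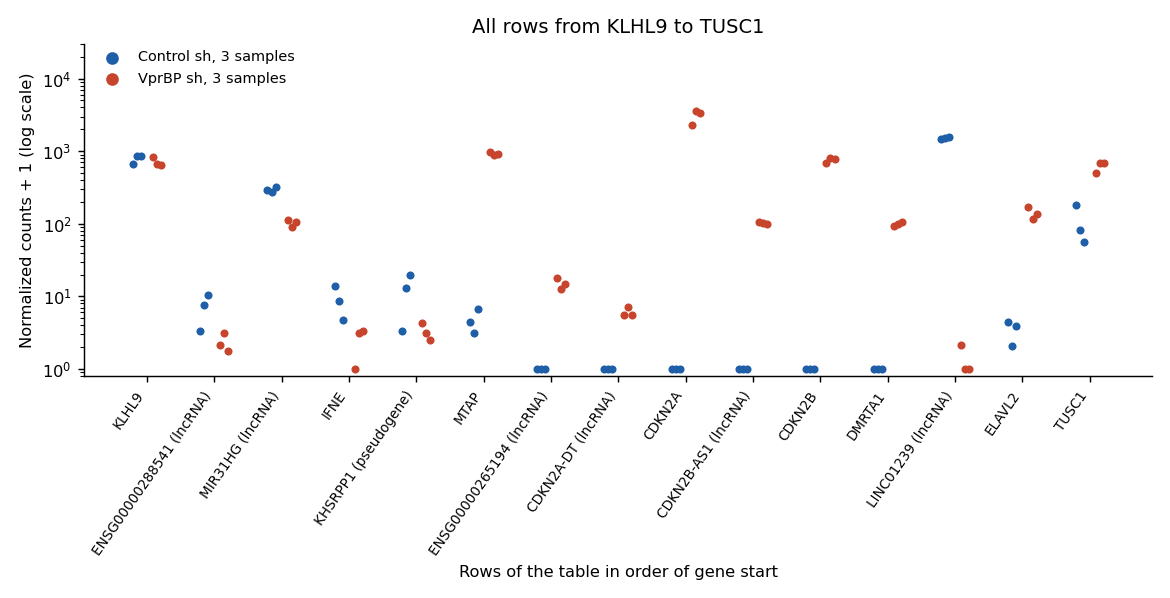
Normalized counts plus 1 on a log axis for the 15 rows from KLHL9 to TUSC1 in order of gene start, with 1 point for each of 3 Control sh and 3 VprBP sh samples. CDKN2A, CDKN2B, DMRTA1, CDKN2B-AS1 and 2 noncoding rows with few counts lie at 0 counts in Control sh, while LINC01239 has Control sh values near 1516 and almost none in VprBP sh.

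Over the whole arm, 93 of the genes tested had a negative and 47 a positive log2 fold change of VprBP sh over Control sh. Of the 161 genes, 140 had enough counts to be tested. The 21 others, among them MLANA, TYRP1, IL33, PAX5 and IFNE, had at most 28 counts in any sample. By the rule for calls, 53 of 140 genes (37.9%) were called, against 46.4% of the 16756 genes tested in the table. Of these, 17 (12.1%) were higher in VprBP sh, against 24.5% over all genes, and 36 (25.7%) were lower, against 22.0%. The groups did not overlap for 110 genes (78.6%, against 79.5% over all genes), with VprBP sh above for 34 (against 42.2% over all genes) and below for 76 (against 37.3%). The arm was chosen on this contrast, and nothing is read from these shares.

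The median log2 fold change was -0.37 over the 140 genes. It stayed at -0.37 with genes that had at most 3 counts in every sample of a group set to their bound or ratio. Those values are large and keep their direction, so the median could not move. It was 0.08 over all genes tested, 0.06 over all protein-coding genes and 0.27 over the 419 tested protein-coding genes of chromosome 9 beyond 43 Mb, of which 100 were called higher and 74 lower. Relative to the median of all genes, the arm lay at -0.45 under each of the scalings tried, by upper quartile, by TMM, by DESeq2 and by library size. A change of scaling shifts all genes by nearly the same amount, so this difference could hardly move, and nothing is read from its constancy. Without the 4 genes of the stretch, 13 of 136 genes were called higher and 36 lower, with a median of -0.41. Fold changes over 4 were reached by 12 of the genes called higher (8.57% of those tested, against 11.3% over all genes) and 22 of those called lower (15.7%, against 13.7%).

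The 161 genes, which leave out MTAP and RPS6, took a smaller share of all protein-coding counts in VprBP sh. Their share was 0.657% to 0.667% in the Control sh samples and 0.499% to 0.512% in the VprBP sh samples, with means of 0.661% ± 0.00561 and 0.506% ± 0.00655 (SD, n = 3). The groups did not overlap. Such a share is weighted by abundant genes. B4GALT1, AQP3 and VCP had means of 12713, 9435 and 13706 normalized counts in Control sh against 2612, 554 and 6316 in VprBP sh. Positive log2 fold changes were found for 47 of the 140 genes tested, so the share does not describe each gene. Of the 161 genes, 3 were without a single count in Control sh and 6 in VprBP sh. Among all 15325 protein-coding genes these numbers were 284 and 694. Over the whole table, which includes noncoding rows, the shares were 2.70% and 5.60%. CDKN2A, CDKN2B and ELAVL2 had no more than 3 counts in any Control sh sample and averaged 100 or more normalized counts in VprBP sh. The reverse held for ANKRD18B, PRSS3 and HRCT1, and no other gene of the 161 had either pattern. Over the whole table the shares were 0.735% and 1.90%, and 129 and 354 of all protein-coding genes had these patterns.

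**Figure D2:**
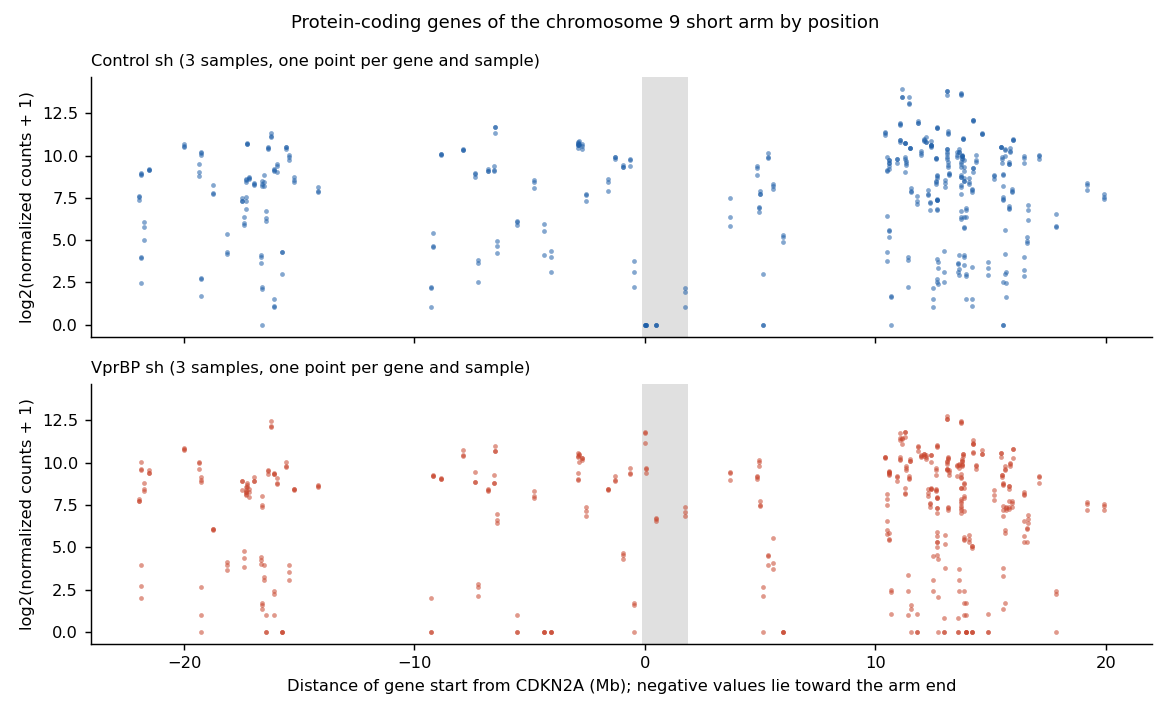
Level of each of the 161 genes, as log2(normalized counts + 1), against the distance of its start from CDKN2A in Mb, with 1 point per gene and sample and the silent stretch shaded. CDKN2A, CDKN2B and DMRTA1 lie at 0 in all 3 Control sh samples (upper panel) and above 0 in all 3 VprBP sh samples (lower panel).

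Along the arm the genes called higher were not gathered on one side of the stretch. Between the end of the arm and the stretch, 49 of 57 genes were tested, with 5 called higher (10.2%), 11 lower (22.4%) and a median log2 fold change of -0.31. Between the stretch and the 43 Mb limit, 87 of 100 genes were tested, with 8 called higher (9.20%), 25 lower (28.7%) and a median of -0.45. Over all genes tested, 24.5% were called higher and 22.0% lower. In windows of 5 Mb, the one from 20 to 25 Mb, which holds the stretch, had 4 genes called higher and 1 lower of 8 tested, and a median of 2.91. The 4 called higher are the genes of the stretch, so this count and median follow from how it was marked. All other windows had medians from -0.51 to 0.20. The 3 of these with the most genes, from 0 to 5, 30 to 35 and 35 to 40 Mb, had 2, 2 and 4 called higher (11.8%, 6.06% and 8.89%). In the same order, 4, 11 and 11 were called lower (23.5%, 33.3% and 24.4%). Neighbouring genes could move in opposite directions: BAG1, called higher, lies between B4GALT1 and CHMP5, both called lower.

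**Figure D3:**
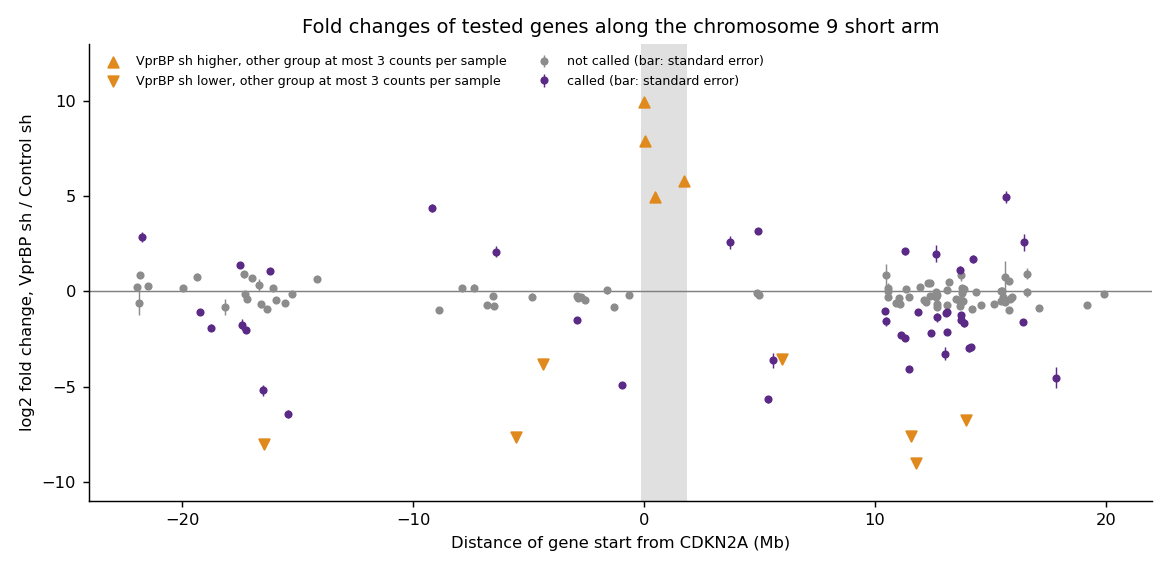
Log2 fold change of VprBP sh over Control sh for the 140 genes tested, against the distance of gene start from CDKN2A in Mb, with standard errors as bars and the silent stretch shaded. Triangles mark genes with at most 3 counts in every sample of a group, drawn at the ratio or, with a group at 0, at its lower bound; the 4 genes of the stretch stand above 0 while genes on both sides lie above and below it.

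**Figure D4:**
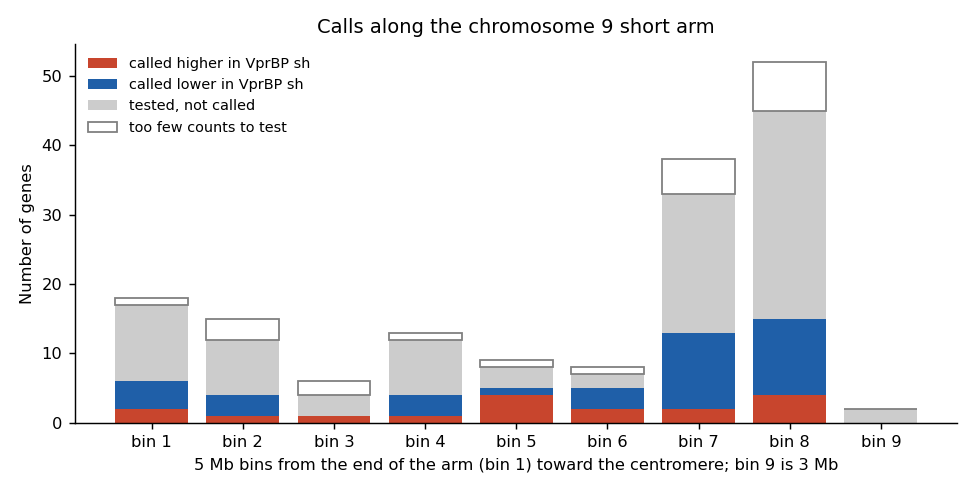
Number of arm genes in each 5 Mb bin from the end of the arm, with the last bin reaching to 43 Mb, divided into genes called higher in VprBP sh, called lower, tested but not called, and not tested. Bin 5, from 20 to 25 Mb, has 1 gene called lower and 4 called higher, which are those of the stretch and were marked by their counts. Bins 7 and 8 have 11 lower each.

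Outside the stretch, the 8 largest called increases were taken among genes with an average of 100 or more normalized counts in VprBP sh. Values in VprBP sh above every Control sh sample were a condition of this choice. FRMPD1, a scaffold protein with FERM and PDZ domains, had 4, 2 and 8 counts in Control sh against 141, 157 and 195 in VprBP sh, or 4.80 ± 2.71 against 157 ± 6.86 normalized counts (log2 fold change 4.96, SE 0.32). LURAP1L, whose product is related to an adaptor of leucine-rich repeat proteins, had 36, 22 and 24 against 542, 571 and 804 (4.37, SE 0.20). These increases came from genes at a low level in Control sh. DOCK8, a guanine nucleotide exchange factor for CDC42 known from lymphocytes, had 27, 60 and 58 counts against 287, 332 and 569 (2.85, SE 0.24). CCDC171, a coiled-coil protein gene, had 26, 22 and 19 against 110, 95 and 112 (2.09, SE 0.27).

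BAG1, a cochaperone of HSP70 that protects cells from apoptosis, had 453, 894 and 929 counts in Control sh against 2680, 3517 and 4665 in VprBP sh. Its means were 793 ± 236 and 3408 ± 362 normalized counts (log2 fold change 2.10, SE 0.20). GNE, the first enzyme of sialic acid synthesis, had 452, 572 and 657 counts against 2320, 1466 and 2099 (1.69, SE 0.20). CLTA overlaps GNE on the opposite strand. PLAA and TUSC1, described above as flanking genes, complete the 8.

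Of the 8 largest called decreases, chosen in the same way on Control sh, 3 went down to almost no counts in VprBP sh. PRSS3, which encodes the digestive protease mesotrypsin, had 168, 129 and 169 counts in Control sh against 1, 0 and 0 in VprBP sh, a ratio of 519 lower (95% exact interval 92.8 to 20558). This rests on the single count of VprBP sh replicate 1, without which it was at least 60.9-fold lower, and it was 305 lower without replicate 3. ANKRD18B, an ankyrin repeat gene, had 201, 223 and 279 against 0, 2 and 2 (196 lower, 76.2 to 721). HRCT1, a short histidine-rich protein gene, had 69, 107 and 115 against 2, 1 and 0 (108 lower, 36.6 to 527), or 232 lower without VprBP sh replicate 1 and 63.5 without replicate 3. These 3 genes had clear counts in Control sh and at most 2 in any VprBP sh sample. By the limits of 3 and 100 counts given above, 1.90% of the table had this pattern. PDCD1LG2, BNC2, SH3GL2 and LINGO2, with means under 100 normalized counts in Control sh, had at most 1 count in any VprBP sh sample. ANKRD18B and ANKRD18A, like CBWD1, CNTNAP3 and CNTNAP3B, WASHC1 and FOXD4, have close copies, and the division of reads between copies is uncertain.

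GLDC, the decarboxylase of the glycine cleavage system, had 892, 882 and 895 counts in Control sh against 13, 7 and 14 in VprBP sh, or 947 ± 93.2 against 10.8 ± 3.62 normalized counts (log2 fold change -6.44, SE 0.20). MOB3B, of the MOB family of kinase activators, had 968, 852 and 1018 against 20, 14 and 28 (-5.67, SE 0.18). HACD4, beside the stretch, followed at -4.91 (SE 0.15). AQP3, a channel for water and glycerol in epithelia, ranked 1 per kilobase of exon among the 161 genes in Control sh and 35 in VprBP sh. It had 9755, 7926 and 8840 counts against 479, 524 and 759, which gave 9435 ± 1626 against 554 ± 24.8 normalized counts (-4.09, SE 0.14).

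**Figure D5:**
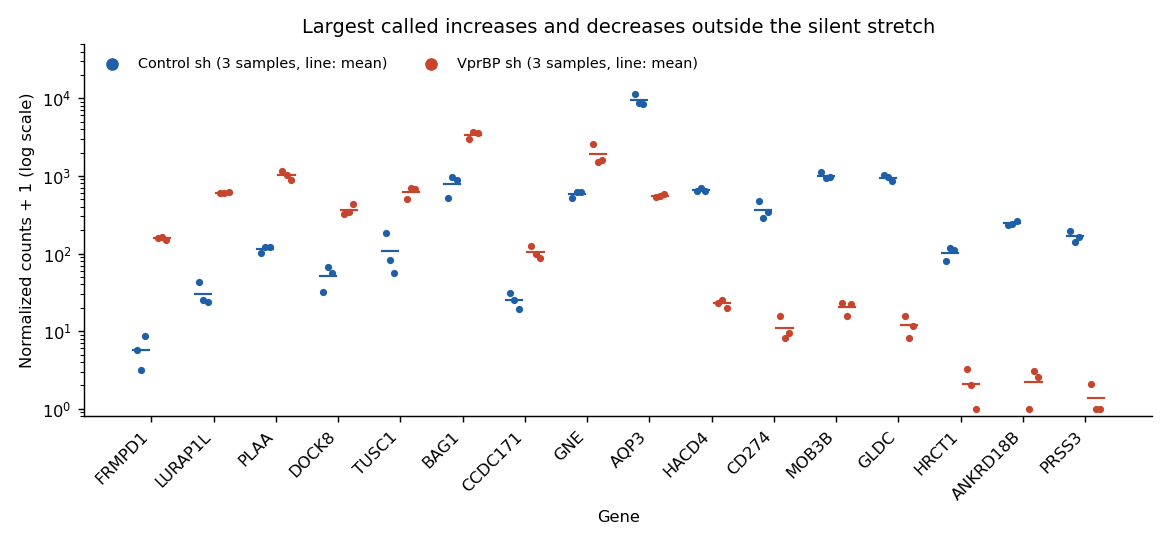
Normalized counts plus 1 on a log axis for the 8 largest called increases and 8 largest called decreases outside the silent stretch, with 1 point per sample and a line at the mean of 3 samples. The 16 genes were chosen among those whose Control sh and VprBP sh points do not overlap, and PRSS3, ANKRD18B and HRCT1 lie at or near 0 counts in VprBP sh.

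Among the immune genes of the arm, CD274, PDCD1LG2 and DDX58 were called lower in VprBP sh and none was called higher. Of 14 listed genes, 8 were in the table and 6 were tested, with 0 called higher and 3 lower. In either direction 50.0% were called, against 46.4% over all genes. By direction, 24.5% of all genes were called higher and 22.0% lower. The list rests on 6 genes. CD274, which encodes PD-L1, had 467, 288 and 342 normalized counts in Control sh against 14.5, 7.27 and 8.43 in VprBP sh, with means of 366 ± 91.8 and 10.1 ± 3.89 normalized counts (log2 fold change -5.20, SE 0.30). PDCD1LG2, which encodes PD-L2, had 91, 71 and 74 against 0, 1 and 0, a ratio of 263 lower (at least 29.8-fold without VprBP sh replicate 2, and 155 without replicate 3). Both ligands of PD-1 thus had clear counts in Control sh and few in VprBP sh. DDX58, the cytosolic RNA sensor RIG-I, had 837, 525 and 565 counts against 253, 175 and 304 (-1.57, SE 0.25). The cytokine gene IL33 had 6, 17 and 20 against 0, 0 and 0, at least 5.06-fold lower, and was too low to be tested.

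JAK2, the kinase of several cytokine receptors, went the other way without passing 2-fold. It had 291, 279 and 338 counts in Control sh against 511, 473 and 639 in VprBP sh (log2 fold change 0.69, SE 0.11), and the groups did not overlap. PLGRKT, a plasminogen receptor, stood at -0.68 and IL11RA, the receptor of interleukin 11, at -0.18, neither called. Of 17 type I interferon genes listed, IFNE was the only one in the table, and it was not tested.

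The 3 pigment genes listed had at most 5 counts in any VprBP sh sample. BNC2, a zinc finger protein linked to pigmentation, had 50, 60 and 73 counts in Control sh against 0, 1 and 0 in VprBP sh, a ratio of 204 lower (at least 22.7-fold without VprBP sh replicate 2, and 119.8 without replicate 3). MLANA, a melanosome protein and melanocyte antigen, had 1, 1 and 2 counts against 4, 1 and 5. TYRP1, an enzyme of melanin synthesis, had 3, 1 and 4 against 0, 0 and 4. The 2 genes specific to pigment cells were thus close to undetected in both groups, and neither was tested.

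Of the regulators of transcription and chromatin, RFX3 was the one called. Of 21 listed genes, 18 were in the table and 17 tested, with 0 called higher and 1 lower (5.88% called, against 46.4% over all genes), and the median log2 fold change was -0.14, which turned to 0.07 with scaling by library size alone. RFX3, a transcription factor of ciliated cells, had 268, 195 and 232 counts in Control sh against 60, 64 and 84 in VprBP sh (-1.91, SE 0.19). SMARCA2, a SWI/SNF ATPase, had 1266, 1534 and 1599 counts against 1539, 1694 and 2406 (0.19, SE 0.08). NFIB, a nuclear factor I transcription factor, had 1165, 1202 and 1350 against 1539, 1307 and 1850 (0.19, SE 0.10). The normalized counts of both were above Control sh in every VprBP sh sample, by far less than 2-fold.

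Adhesion, receptor and membrane transport genes had 2 called higher and 8 lower of 19 tested (23 of 24 listed were in the table). The 52.6% called compare with 46.4% over all genes, the shares lower being 42.1% and 22.0%. The increases were DOCK8 and SLC1A1, a glutamate transporter (1.40, SE 0.16). Genes of the cytoskeleton and of adhesion were among the decreases: TLN1, which encodes talin and links integrins to actin, had 11469, 11654 and 12952 counts against 5018, 5215 and 6919 (-1.23, SE 0.08), and the tropomyosin gene TPM2 stood at -1.51. B4GALT1, a galactosyltransferase, had 13499, 10340 and 11870 against 1991, 2638 and 3747 (-2.28, SE 0.15). RECK, a membrane-anchored inhibitor of matrix metalloproteinases, had 354, 288 and 359 against 47, 43 and 50 (-2.98, SE 0.18), and the neighbouring GLIPR2 stood at -2.93. SH3GL2, an endophilin of synaptic vesicle recycling, had 14, 42 and 64 counts against 0 in all VprBP sh samples (at least 14.0-fold lower), and LINGO2, a leucine-rich repeat membrane protein, had 33, 32 and 30 against 0 (at least 11.6-fold lower). AQP3 is the remaining one. With TMM or DESeq2 scaling 9 were called lower, and with library size 3 were called higher.

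Housekeeping, repair and metabolism genes, all 40 of which were tested, had 4 called higher and 10 lower, or 35.0% in all, against 46.4% over all genes. The increases were ERMP1, an endoplasmic reticulum peptidase (log2 fold change 1.06), PLAA, BAG1 and GNE. GLDC led the decreases. C9orf72, known for the repeat expansion in motor neuron disease, had 224, 268 and 338 counts in Control sh against 41, 15 and 16 in VprBP sh (-3.63, SE 0.37), or -4.40 (SE 0.21) without VprBP sh replicate 1. CHMP5, a subunit of the ESCRT-III membrane scission complex, had 1451, 1587 and 1832 against 330, 277 and 378 (-2.45, SE 0.12). The mitochondrial adenylate kinase gene AK3 had 1502, 1479 and 1711 against 391, 360 and 533 (-2.03, SE 0.10), and VCP, an ATPase that extracts ubiquitinated proteins, had 10657, 13299 and 15094 against 6091, 5827 and 7947 (-1.12, SE 0.09).

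The remaining 5 decreases in this list ran from -1.63 in ALDH1B1, a mitochondrial aldehyde dehydrogenase, and -1.50 in HAUS6, a subunit of the augmin complex, to -1.10 in both UBE2R2, a ubiquitin-conjugating enzyme, and STOML2, a mitochondrial membrane scaffold, and just past 2-fold in ACO1, the cytosolic aconitase. Several lay close to the 2-fold limit: ERMP1 was not called with TMM or DESeq2, nor VCP, UBE2R2, STOML2 and ACO1 with library size, nor ERMP1 and ACO1 without Control sh replicate 3 (0.9998 and -0.97). ERMP1 was also not called without VprBP sh replicate 1 (0.93), nor ACO1 without Control sh replicate 2 (-0.99). The split of the list was 3 higher and 12 lower with TMM or DESeq2 and 4 and 6 with library size. Of 11 genes listed around 9p21, 10 were in the table, among them the 4 of the stretch with KLHL9, HACD4, TUSC1 and CAAP1. All 10 were tested, with 5 called higher and 1 lower, or 60.0%, against 46.4% over all genes. The direction of the 4 genes of the stretch was set by how it was marked, and TUSC1 was the other gene called higher. In the same list, FOCAD, a focal adhesion protein gene, stood at -0.84 and MLLT3, of the super elongation complex, at 0.06, neither called.

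Genes outside these lists made up the rest of the calls. Higher in VprBP sh were IGFBPL1, with 13, 6 and 9 counts in Control sh against 82, 37 and 66 in VprBP sh (log2 fold change 2.58, SE 0.45), ARID3C (1.97, or 2.59 without Control sh replicate 1) and CCDC107 (1.11, not called with DESeq2 or without VprBP sh replicate 2). Lower were FAM219A, with 1581, 1434 and 1636 counts against 331, 335 and 459 (-2.21, SE 0.10), the chaperone gene DNAJB5, with 243, 346 and 343 against 47, 12 and 47 (-3.28, SE 0.35), FAM214B (-2.16), SPATA6L (-1.74), TMEM8B (-1.65), PUM3 (-1.11, not called with library size) and the rows without a symbol ENSG00000283886 (-4.53) and ENSG00000258728 (-1.36). Overlapping genes were common on the arm: 30 of the 161 genes overlap another gene on the same strand and 82 on the opposite strand, so that reads of these could not be told apart in every case.

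Several abundant genes of the arm differed little between groups. GRHPR, a glyoxylate reductase, had 1233, 1309 and 1531 counts in Control sh against 1158, 1476 and 1966 in VprBP sh, or 1435 ± 15.0 against 1445 ± 132 normalized counts (log2 fold change 0.01, SE 0.09, or -0.11 with DESeq2). PIGO, an enzyme of glycosylphosphatidylinositol anchor synthesis, had 934, 874 and 954 against 933, 1053 and 1261 (0.08, SE 0.10, or -0.04 with DESeq2). GBA2, a glucosylceramidase outside the lysosome, had 890, 917 and 969 against 976, 1038 and 1546 (0.19, SE 0.09). With NFIB and SMARCA2 these were the 5 genes that averaged 1000 or more normalized counts over the 6 samples and had the smallest fold changes. The groups overlapped for GRHPR and PIGO and not for the other 3.

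The products of CDKN2A and CDKN2B act through cyclin D, CDK4, CDK6, the retinoblastoma family and MDM2, whose genes lie off the arm. All 22 genes listed around these products were tested, with 7 called higher and 6 lower, or 59.1%, against 46.4% over all genes. RB1 had 1821, 2402 and 2677 counts in Control sh against 29, 15 and 23 in VprBP sh (log2 fold change -6.82, SE 0.21). The D-type cyclin gene CCND2 had 1152, 823 and 1002 against 0 in every VprBP sh sample, CCND1 stood at -4.53, CDK6 at -3.08 and the kinase inhibitor gene CDKN1A at -3.24. Among the genes called higher was CDKN2C, which encodes the kinase inhibitor p18INK4c, with 116, 153 and 201 counts against 1454, 1839 and 2501 (3.47), while MDM2 (0.40), E2F1 (0.04) and CDK4 (-0.45) were not called. The groups that had counts of CDKN2A and of RB1 were thus opposite ones: Control sh had RB1 and no CDKN2A, and VprBP sh had CDKN2A and few counts of RB1.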

How the data were processed

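RNA-seq was analysed for 3 Control sh and 3 VprBP sh samples, grouped and numbered by their titles. Per the labels and the study's methods, reads were aligned to hg38 with STAR, and the authors deposited expected counts per gene from Partek Flow, without the upper quartile normalization their methods describe and without pooling replicates. The labels name a SMARTER kit and the methods a strand-specific KAPA kit. Of the deposited estimated counts, 59.4% are whole numbers, and every gene of the table sums to at least 10. They were rounded before any test. Total counts ran from 18195949 to 26883948 per sample, and 3 counts, taken as the floor in each library, correspond to 2.30 to 3.48 normalized counts. Intervals and floors cover counting error only.

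VprBP sh was compared with Control sh over all 6 samples in edgeR 4.0.16 (R 4.3.3) by its quasi-likelihood test, with upper quartile factors (quantile 0.75), the filter on low counts (minimum 10) and Benjamini-Hochberg adjustment over 16756 genes. It was used in place of Partek's Gene Specific Algorithm. Calls required an adjusted p-value below 0.05 together with more than a 2-fold change. The standard error of a log2 fold change was taken as its size over the root of F. Normalized counts are counts divided by the upper quartile factors, scaled to a mean of 1. A fold against a group at 0 is a bound computed against 3 counts, and a ratio against a group with 1 to 3 counts carries an exact binomial 95% interval. The scripts were tested on simulated data.

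The arm, its stretch and the gene lists were chosen with earlier results of these data known. Named genes are DCAF1, the stretch and 3 genes on each side, the 8 largest called increases and decreases outside it that averaged 100 or more normalized counts without overlap, the 5 smallest changes among genes with a mean of at least 1000, and the list members. Other genes were named after their values were seen. The values of 1 gene of the list off the arm are not reported here. Positions follow the deposited table (hg38), ending at the last base as GENCODE 44 counts it, in which 160 of the 161 identifiers were found and 156 had the same start and end. Overlaps and exon lengths came from GENCODE 44, and promoters from RefSeq on GRCh38.p14, where 134 of the genes had an entry. Alternatives were TMM and library size scaling, DESeq2 1.42.0, limma-voom (limma 3.58.1), other filters, a replicate block, no fold limit, leaving out each sample and, chosen after seeing the data, replicates 2 and 3 summed. Samples with the same number did not deviate together (correlations of -0.17, -0.05 and -0.12 over 12133 genes), so the block was not used in the reported fit.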

Additional observations from a re-analysis of the deposited data

How the results depend on the processing

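No gene called on the arm turned its direction under any alternative run, while 17 genes that were not called did in at least 1, among them KLHL9, CAAP1, GRHPR and PIGO. The stretch, its flanking genes, the 8 largest changes each way and the 5 stable genes kept their call wherever an alternative tested them. Among other genes named, ERMP1, ACO1, CCDC107, PUM3, UBE2R2, VCP and STOML2, all near 2-fold, lost it under at least 1. Of the 140 genes tested, 53 were called, and 101 were when the limit of 2-fold was dropped. With at least 10 counts in every sample, which leaves out genes with a group near 0, 121 genes were tested, 35 were called and 10 of these were higher, the named genes called went from 20 of 27 to 10 of 17, and the median log2 fold change was -0.32. The median, -0.37 in the reported fit, was -0.49 with DESeq2, -0.46 with TMM factors, -0.15 with library size alone, -0.44 without a filter and -0.44 with replicates 2 and 3 summed. The log2 fold change of DCAF1, -0.58, was -0.37 with library size alone (adjusted p = 0.0851, edgeR) and -0.46 with replicates 2 and 3 summed (adjusted p = 0.0839, edgeR), both past the 0.05 limit. As a share of all counts, the arm took 0.651% in Control sh and 0.496% in VprBP sh. Leaving out 1 sample at a time gave medians of -0.45 to -0.36, 53 to 58 genes called, a DCAF1 change of -0.82 to -0.46, shares of 0.658% to 0.663% and 0.503% to 0.509%, and a stretch of 4 to 5 genes, IFNE joining it without Control sh replicate 1. With a replicate block, 53 genes were called, the median was -0.37 and the DCAF1 change -0.60 (adjusted p = 0.0274, edgeR), and no arm gene changed its call. The numbers did not pair the samples, whose same-numbered correlations were -0.17, -0.05 and -0.12. The cause of these shifts was not tested except where fewer genes or samples entered. With 3 samples a group, a gene at 0 in Control sh is known to lie under 0.121 to 0.145 CPM and no more, and genes of few counts are placed by their intervals.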
